A study of Mus musculus with 8 samples.

Results

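Dark rearing was compared with normal light rearing over both genotypes of the series, on 8 of 8 single-nucleus RNA-seq libraries of mouse primary visual cortex (V1) at postnatal day 21. The 4 dark-reared (DR) libraries were set against the 4 normal-reared (NR) libraries by the rearing condition in the deposited cell table, with genotype as a further term, so that the difference described is the average over both genotypes. Each rearing held 2 groups, GR-Con and GR-KO, and each group 1 male and 1 female library. NR mice lived in a reversed light and dark cycle, and DR mice in continuous darkness. By the study's methods, mice of both rearings were collected under red light, in the hours just after the light phase of the NR cycle. Immediate early genes were therefore not compared between light and darkness at the time of collection. All mice of all groups were GR fl/fl, that is, they carried loxP-flanked alleles of Nr3c1, the glucocorticoid receptor gene. All were injected at birth with AAV2/5 carrying the astrocyte promoter GfaABC1D, which drove Cre with eGFP in GR-KO and a truncated, inactive Cre with eGFP in GR-Con. No group was therefore free of virus or of the altered allele, and recombination depended on which cells the virus and promoter reached. Nuclei positive for the DNA dye DRAQ5 and negative for GFP were sorted by the study's methods. The eGFP was a membrane-targeted form, and how far this gate removed transduced cells was not tested. With 2 animals per group, p-values measure the spread between these 8 libraries.

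Vision drives the maturation of V1 circuits after eye opening. Light-evoked firing lets calcium into neurons, which switches on immediate early genes, mostly transcription factors of the FOS, EGR and NR4A families, and these together with CREB and MEF2 turn on later effector genes that differ between cell types. Rearing in darkness removes this drive, and is known to delay the maturation of inhibition and to lengthen the period in which cortical wiring can be changed by experience.

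The deposited matrix held 26711 features and 102330 nuclei in 20 annotated cell types. Libraries held 9517 to 15161 nuclei and 168632129 to 288774016 UMIs (unique molecular identifiers, each standing for 1 captured RNA molecule), with medians of 14861 to 29223 UMIs per nucleus. In GR-KO the male and female medians were 22827.5 and 29223 in NR and 14928.5 and 14861 in DR, so depth and rearing went together there. In GR-Con they were 17759.5 and 15884 in NR and 16968 and 20161 in DR. Of 101098 different cell barcodes, 1220 occurred in more than 1 library. Of 62 marker genes found in the files and assigned to a type, 52 were highest in the type they mark. Nr3c1 in astrocytes was at 230.9, 221.4, 284 and 268.3 CPM (UMIs of a gene scaled to a common library total) in NR and 262.7, 206.9, 273.9 and 274.8 in DR libraries, in the order GR-Con male, GR-Con female, GR-KO male, GR-KO female, which is kept below. It was not lower in GR-KO, but where the deleted part lies relative to the counted 3′ end was not checked, so these values do not check the genotype labels.

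Some libraries stood apart. The lowest UMI number of any nucleus was 4635 in the NR GR-Con male, 7024 in the NR GR-KO male and 5704 in the DR GR-Con female library, against 1402 to 1460 in the other 5. The 3 libraries with this high UMI floor held 2, 4 and 4 microglia. The NR GR-KO male library also had the highest summed level of immediate early genes in each of the 15 cell types fitted on all 8 libraries. Without these 3 libraries, an alternative chosen after seeing the data, 200 of 345 called pairs of named and listed genes and cell types no longer passed and 145 did, with 0 changed in direction. The counts of the main lists are given without them below. The NR libraries left in this alternative were both female, and the DR libraries left were the GR-Con male and both GR-KO libraries. No sex term was fitted in it, so rearing and sex were partly confounded there.

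Among the types fitted on all 8 libraries, most genes were called in excitatory neurons of layers 2/3, 4 and 6. UMIs were summed per library and cell type, and each gene was tested with edgeR's quasi-likelihood test at a Benjamini-Hochberg adjusted p under 0.05 within the type. In L2/3 neurons, 1232 of 18793 genes tested were higher in DR (6.56%) and 1399 were lower (7.44%). Corticothalamic L6CT neurons had 912 higher (5.45%) and 756 lower (4.52%) of 16730, and L4 neurons 675 higher (3.72%) and 658 lower (3.63%) of 18131. Intratelencephalic L6IT neurons followed with 291 higher (1.82%) and 236 lower (1.48%) of 15957. Layer 5 had few calls: 83 higher (0.577%) and 86 lower (0.598%) in L5IT, 62 (0.503%) and 46 (0.373%) in near-projecting L5NP, and 17 (0.112%) and 18 (0.119%) in pyramidal-tract L5PT neurons. In L6b neurons no gene of 11659 passed, while 1064 had an unadjusted p under 0.05, the likelihood ratio test called 53 and DESeq2 called 26.

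Among inhibitory neurons, Pvalb cells had 124 genes higher (0.834%) and 84 lower (0.565%), and Lamp5 cells 116 higher (0.976%) and 41 lower (0.345%). Sst cells had 0 higher and 2 lower (0.0143%), and Vip cells 1 higher and 1 lower (0.00747% each). Oligodendrocytes had 146 genes higher (1.06%) and 60 lower (0.437%), and their precursors (OPC) 74 higher (0.617%) and 65 lower (0.542%). Astrocytes had 2 higher (0.0136%) and 1 lower (0.00678%) of 14754, with 1661 at an unadjusted p under 0.05, 138 by the likelihood ratio test and 97 by DESeq2. Pooled over types, 0.446% of pairs tested were higher and 0.237% lower in the inhibitory class, and 0.548% and 0.311% in oligodendrocytes, OPC and astrocytes together. Numbers of nuclei differ between types, so these counts do not rank how strongly types responded.

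**Figure D1:**
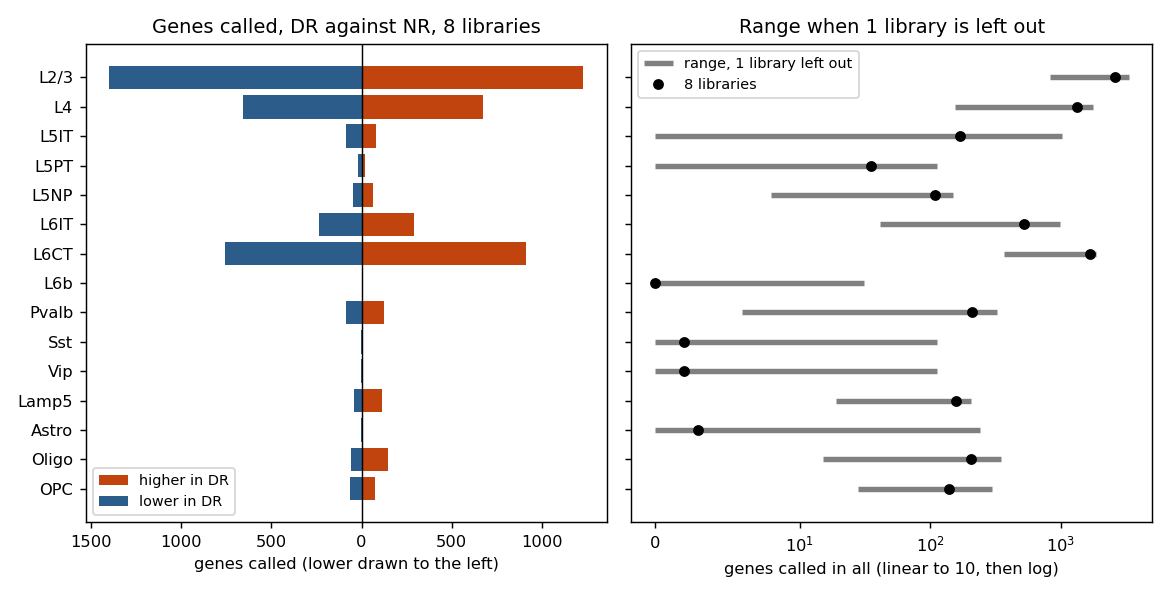
Left, numbers of genes higher and lower in DR than in NR libraries in each cell type (bars; horizontal axis, number of genes at an adjusted p under 0.05). Right, the number called (point) and the lowest and highest number when 1 library is left out (line; the axis is linear up to 10 and logarithmic above). L2/3, L6CT and L4 neurons have the most calls, and in L2/3 the count runs from 833 without the DR GR-KO male to 3327 without the DR GR-Con male library.

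The counts moved strongly with single libraries. Without the DR GR-KO male library, calls fell to 833 in L2/3 and 154 in L4, and L6CT fell to 371 when the NR GR-Con male was left out. Without the 3 libraries of high UMI floor, 304 genes were higher and 293 lower in L2/3, 158 and 121 in L4, and 283 and 199 in L6CT. In that fit 1.1% of excitatory pairs were higher and 0.769% lower, and 1.22% and 0.571% of inhibitory pairs, the shares beside which list counts without these libraries are to be read. The same removal raised the counts in Sst cells to 146 and 71, in Vip cells to 263 and 138, and in astrocytes to 151 and 136, so a low count above does not show that a type was unaffected. The sexes were not balanced between the rearings in that fit, so the raised counts do not show an effect of rearing either.

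The same genes often differed in several excitatory types. Over the 8 excitatory types 6471 of 123108 gene and type pairs were called, 2.66% higher and 2.6% lower, from 4084 different genes. In at least 2 of these types 731 genes were higher and 725 lower, and in at least 5 types 33 were higher and 34 lower. Of the 4084 genes, 17 were called in both directions, and 0 in at least 2 types each way. The genotype term removed only an additive difference, so effects within each genotype were also computed. In L2/3, rearing within GR-KO gave 1354 calls and rearing within GR-Con 78. Both were contrasts of a model with a rearing by genotype term, fitted to all 8 libraries. The part of depth per nucleus in these counts was not tested. They do not show that the genotypes differ: the interaction, the test of that difference, called 6 pairs in all types together (0.00276%). In L2/3 neurons 1651 of 18793 genes had an unadjusted interaction p under 0.05 in edgeR's quasi-likelihood test. The few calls therefore do not show that the genotypes respond alike, and other tests called more, as given in the last section.

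Genes higher in the most types included Igsf21, Ski, Ssbp3, Rbms3, Sez6l, Xylt1 and Gria1, each in 7 types. Ski (chr4:155154075-155222592, GRCm38), a co-repressor of TGF-β signalling, was at 72.2, 77.3, 76.0 and 61.2 CPM in NR and 93.1, 107, 139 and 124 in DR libraries of L2/3 neurons (log2 fold change 0.68, SE 0.12, adjusted p 0.013). Every DR library was above every NR library, with the GR-KO libraries the highest, and the call held when any 1 library was left out. Igsf21 (chr4:140026846-140246784), a synaptic adhesion protein of inhibitory synapses, was at 20.4, 26.9, 22.5 and 30.2 CPM in NR and 27.2, 41.6, 74.2 and 45.1 in DR (0.86, adjusted p 0.04). Here the DR GR-Con male library lay within the NR range, so the groups overlapped. Rbms3, an RNA-binding protein, had a log2 fold change of 0.74 in L2/3, Ssbp3, a cofactor of LIM-homeodomain factors, 0.61, Sez6l, a transmembrane protein of synapses, 0.56, and Xylt1, which starts the sugar chains of proteoglycans, 0.27. With the trend of expression over gene span taken out, as described below, Ski kept all 7 of its calls, Xylt1 5, Gria1 4, Sez6l 3, and Igsf21, Ssbp3 and Rbms3 2 each. In L2/3 Igsf21 (0.75, adjusted p 0.065), Ssbp3 (0.51, 0.057), Sez6l (0.46, 0.058) and Xylt1 (0.15, 0.11) then no longer passed.

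The genes lower in the most types included some that are abundant in other cells. Gm42418, a non-coding gene that overlaps a ribosomal RNA repeat (chr17:39846958-39848788), Hbb-bs and Osbpl3 were lower in 10 types each, Ubb and Atp6v0c in 9, and Ttc9b and Nefl in 8. Osbpl3 (chr6:50293330-50456201), a lipid-transfer protein, was at 336, 362, 221 and 230 CPM in NR and 64.2, 68.4, 123 and 101 in DR libraries of L2/3 neurons (−1.71, SE 0.26, adjusted p 0.0087). No DR library reached the lowest NR library, and the difference held without any 1 library. The size was −2.40 within GR-Con and −1.01 within GR-KO, but the interaction did not pass (adjusted p 0.19). Hbb-bs (chr7:103826534-103828096), a β-globin of red blood cells, was at 10.0, 6.83, 14.8 and 8.71 CPM in NR and 3.49, 3.16, 4.59 and 6.34 in DR (−1.22, adjusted p 0.01). Its near-identical copy Hbb-bt can share its reads. Summed over the haemoglobin genes, astrocytes were at 46.6 to 104.1 CPM in NR and 15 to 44.5 in DR, and oligodendrocytes at 36.5 to 75.9 and 13.7 to 33.7, without overlap. There was no overlap in L6CT neurons either (22.29 to 40.59 and 7.43 to 16.6), nor in L5NP, L6IT and L6b. The rearings overlapped in OPC (45.67 to 114.4 and 22.24 to 47.77), in L2/3 neurons (13.9 to 33.8 and 7.53 to 14.3) and in the other types fitted on all libraries. The part of haemoglobin RNA in the other results was not tested. The other shared genes described here were Ubb, a ubiquitin gene (−0.79 in L2/3), Ttc9b (−0.75), Atp6v0c, a subunit of the vesicular proton pump (−0.65), and Nefl, the light neurofilament (−0.63). With the span trend taken out, Osbpl3 kept all 10 of its calls, Atp6v0c, Ttc9b and Nefl 4 each, Hbb-bs 3, Ubb 2 and Gm42418 1.

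**Figure D2:**
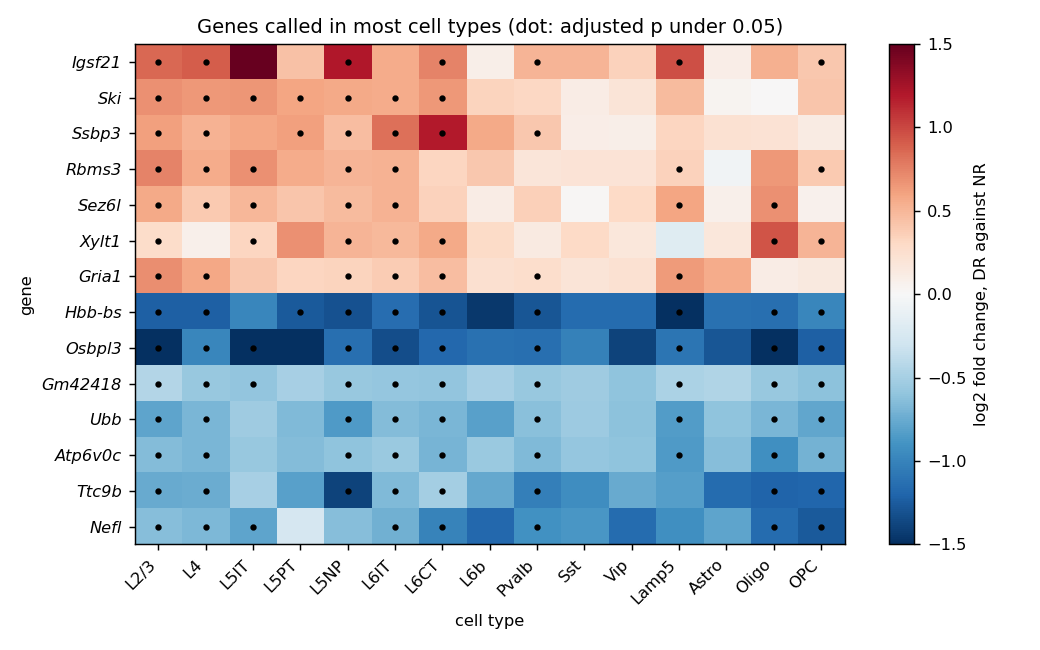
Log2 fold change of DR against NR for genes called in the most cell types (rows) in the 15 cell types fitted on all libraries (columns). Colour shows the size, with values beyond 1.5 in either direction drawn at 1.5, grey marks types where the gene was not tested, and a dot marks an adjusted p under 0.05; Gm42418 has dots in 10 types and Gria1 in 7.

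Of 31 late effector genes of neuronal activity tested in L2/3 neurons, 0 were higher in DR and 11 lower, against 6.56% and 7.44% of all genes, 30 had a negative log2 fold change, and the median was −0.604 against −0.005 over all genes. This and the other gene lists were chosen with earlier results of these data known, so their counts are descriptions and not independent support. Summed over the effector list the rearings overlapped, at 1658 to 2097 CPM in NR and 1494 to 1726 in DR. In Lamp5 cells this sum was higher in DR without overlap, at 1718 to 1848 in NR and 1896 to 2220. Scg2 (chr1:79434669-79440120), a precursor of secreted neuropeptides, was at 12.1, 9.84, 13.4 and 9.71 CPM in NR and 3.84, 5.00, 2.52 and 2.67 CPM in DR libraries (−1.72, SE 0.20, adjusted p 0.0048). The lowest NR library was above the highest DR library, and the DR GR-KO libraries were lowest. Nptx2 (chr5:144545902-144557478), a secreted pentraxin that gathers AMPA receptors at synapses onto Pvalb interneurons, was at 7.19, 4.76, 7.67 and 4.53 CPM in NR and 1.44, 1.97, 1.43 and 2.00 in DR (−1.82, SE 0.22, adjusted p 0.0054). Its groups did not overlap, with the NR males above the NR females. Ptgs2, the prostaglandin synthase COX-2, was at 5.27, 4.88, 6.42 and 4.42 CPM in NR and 1.65, 2.20, 0.994 and 1.03 in DR (−1.88, adjusted p 0.0054), again without overlap. Bdnf (chr2:109674700-109727007), the neurotrophin that promotes the maturation of inhibition, was at 24.9, 19.8, 32.5 and 17.99 CPM in NR and 16.6, 10.8, 10.8 and 9.74 in DR (−1.001, SE 0.22, adjusted p 0.024). The groups only just separated, between 17.99 and 16.6, and the call was lost without the NR GR-Con male, the DR GR-Con female, the DR GR-KO male or the DR GR-KO female library.

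Effectors that act inside the cell or on its surface followed. Rgs4, a brake on G-protein signalling, was at 24.4, 22.6, 31.4 and 22.1 CPM in NR and 13.5, 13.6, 9.96 and 9.53 in DR (−1.12, SE 0.16, adjusted p 0.0062). Inhba, a subunit of activin, was at 31.6, 27.0, 23.9 and 26.8 CPM in NR and 18.6, 16.5, 11.9 and 15.1 in DR (−0.82, adjusted p 0.0049). Baz1a, a chromatin remodelling subunit, was at 30.8, 16.5, 20.2 and 17.2 CPM in NR and 9.68, 5.78, 4.36 and 8.43 in DR (−1.58, adjusted p 0.011). None of these overlapped, and all held without any 1 library, as did Scg2, Nptx2, Ptgs2 and Nrn1, a membrane-anchored neurite growth protein (−0.53, adjusted p 0.008). Vgf, a neuropeptide precursor (−1.03), Plk2, a kinase that weakens overactive synapses (−0.34), and Cort, the peptide cortistatin (−1.12), were also lower, but held in 4, 3 and 0 of 8 such refits. Depending on the library left out, 7 to 12 of the effectors were lower and 0 or 1 higher. Without the 3 libraries of high UMI floor 6 were lower, against 1.57% of all L2/3 genes (1.63% higher), with a median of −0.335.

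Promoters of these genes can carry the cAMP response element TGACGTCA, which CREB binds, or the AP-1 element TGANTCA, which FOS and JUN bind. Both motifs read the same on either strand, and a match of one is never a match of the other. Of the 12 activity genes called lower in L2/3 neurons (the 11 effectors and Nr4a1), 8 had a promoter in the RefSeq table (GRCm38.p6; 250 bases before to 50 after the start), and 3 of them held a motif. Counted by promoter this was 3 of 14, since Bdnf has 7 starts in the table and 1 of them a motif. Over all 32851 promoters of this table, 1.79% held TGACGTCA and 7.81% held TGANTCA. The 250 bases before the start are shown for these 3, with the motif in capitals, because that is where the motifs lay. A match is a description of the sequence and not evidence that a factor bound it.
Scg2, minus strand, chr1:79440027-79440276: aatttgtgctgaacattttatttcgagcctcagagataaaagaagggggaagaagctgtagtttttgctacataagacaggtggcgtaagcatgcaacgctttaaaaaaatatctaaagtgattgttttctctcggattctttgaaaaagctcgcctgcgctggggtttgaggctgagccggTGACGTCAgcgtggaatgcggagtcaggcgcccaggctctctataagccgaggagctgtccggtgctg
Plk2, plus strand, chr13:110394794-110395043: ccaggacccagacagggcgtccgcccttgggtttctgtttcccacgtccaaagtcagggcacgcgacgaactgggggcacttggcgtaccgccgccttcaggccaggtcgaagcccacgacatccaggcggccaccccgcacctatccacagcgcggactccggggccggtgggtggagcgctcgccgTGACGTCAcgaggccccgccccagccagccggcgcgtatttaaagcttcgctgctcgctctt
Bdnf, plus strand, 1 of its starts, chr2:109676782-109677031: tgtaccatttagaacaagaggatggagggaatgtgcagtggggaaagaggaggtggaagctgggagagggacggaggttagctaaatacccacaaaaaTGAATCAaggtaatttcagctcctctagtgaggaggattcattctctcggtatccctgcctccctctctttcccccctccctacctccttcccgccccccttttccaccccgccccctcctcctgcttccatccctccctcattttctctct

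Of the effectors in L6CT neurons 1 of 30 was higher and 6 lower, against 5.45% and 4.52% of all genes. In L6IT neurons it was 1 and 4 of 28, against 1.82% and 1.48%, and in L4 neurons 1 and 2 of 30, against 3.72% and 3.63%. The difference between types was not tested. Over the excitatory types 4 of 212 pairs were higher and 24 lower, against 2.66% and 2.6% of all pairs, with a median of −0.276 against −0.007. Leaving out 1 library gave 11 to 23 lower pairs, and leaving out the 3 libraries of high UMI floor gave 6 higher and 10 lower. Scg2 was lower in L6CT (9.39, 7.63, 9.32 and 9.30 CPM in NR, 2.36, 5.27, 5.05 and 3.23 in DR, adjusted p 0.022), and so was Nptx2 (−0.79, adjusted p 0.011). Bdnf in L4 neurons was at 23.0, 16.2, 31.6 and 13.7 CPM in NR and 18.3, 21.04, 17.6 and 21.8 in DR, with the DR libraries inside the NR range. Over the inhibitory types 2 of 102 pairs were higher and 2 lower, against 0.446% and 0.237% of all pairs, and 10 and 4 of 98 without the 3 libraries of high UMI floor. Igf1, the growth factor, was among the higher ones, in Lamp5 cells (0.68 on the log2 scale, held without any 1 library) and in L6CT neurons.

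**Figure D3:**
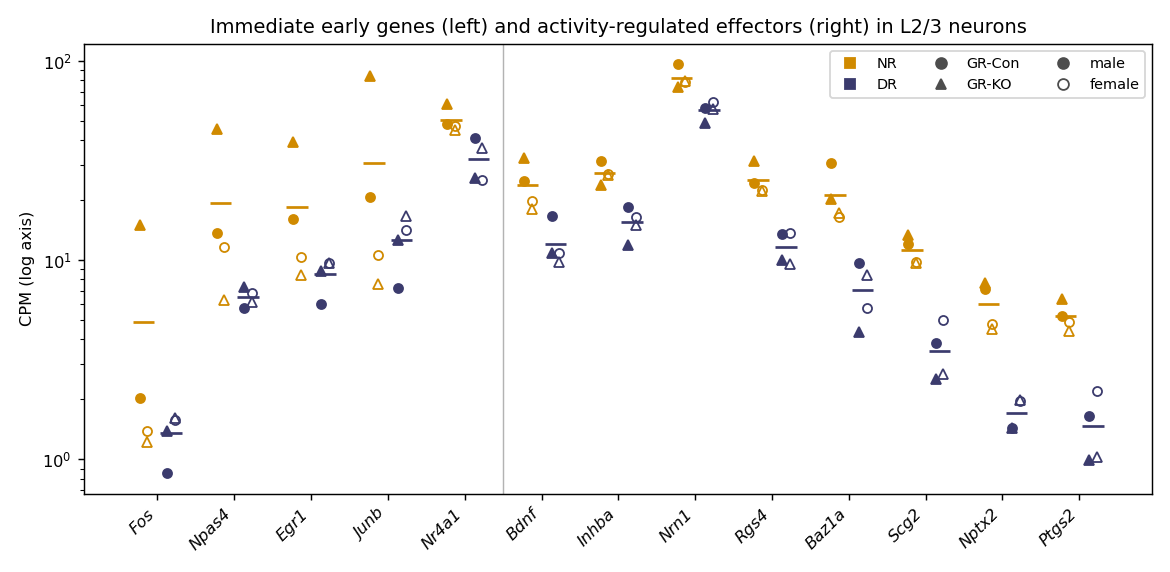
Level of 5 immediate early genes (left) and 8 effector genes (right) in L2/3 neurons, in CPM on a logarithmic axis, in each library (circles GR-Con, triangles GR-KO, filled male, open female; bars are means of 4 libraries). The effector levels of DR libraries lie below those of NR libraries, while for Fos and Npas4 the NR GR-KO male library alone is far above the others, at 15.0 and 45.4 CPM.

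In neurons the values of the immediate early genes depended on 1 library. Of 19 tested in L2/3 neurons, 16 had negative fold changes with a median of −0.721, but only Nr4a1 passed (48.1, 47.3, 60.8 and 45.1 CPM in NR, 41.0, 25.2, 25.7 and 36.6 in DR, adjusted p 0.046), and it was lost in 7 of 8 refits without 1 library. Fos was at 2.03, 1.39, 15.0 and 1.22 CPM in NR and 0.853, 1.57, 1.40 and 1.61 in DR (−1.504, adjusted p 0.2). Npas4, a factor induced by calcium alone, was at 13.8, 11.7, 45.4 and 6.34 CPM in NR and between 5.74 and 7.34 in DR (−1.47, adjusted p 0.087). The NR GR-KO male library was 3 or more times any other in both, and the rest overlapped or nearly so. Summed over the list, this library was at 406.9 CPM in L2/3 and 596.5 in L4, while DR libraries were at 100.4 to 114.8 and 124.7 to 165.3. Without it the L2/3 median was −0.015, Egr3 (0.68), Nr4a2 (2.25) and Nr4a3 (1.38) were higher in DR (adjusted p 0.033, 0.033 and 0.015) and Egr4 was lower (−1.05, adjusted p 0.016). Over the excitatory types, 0 of 120 pairs were higher and 1 lower with all libraries, against 2.66% and 2.6% of all pairs. Without this library it was 8 and 1, against 2.55% and 2.14%, and without the 3 libraries of high UMI floor 13 and 0 of 116, against 1.1% and 0.769%. Among inhibitory types 2 of 46 pairs were higher and 0 lower, against 0.446% and 0.237% of all pairs, Fosl2 (2.32) and Nr4a3 (1.24) in Lamp5 cells, each held in 2 of 8 refits without 1 library. In OPC Egr1 was lower (19.3, 13.4, 28.2 and 20.96 CPM in NR, 5.45, 7.78, 10.5 and 16.2 in DR, −1.07, adjusted p 0.02), with overlap, in 4 of 8 such refits. In oligodendrocytes the summed list did not overlap, at 64.04, 65.2, 108.3 and 67.52 CPM in NR and 51.19 to 59.72 in DR, also without the NR GR-KO male library.

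Among glutamate receptor subunits, Gria1 and Grin2d were higher. Gria1 (chr11:57011387-57330244), the AMPA receptor subunit GluA1, was at 549, 577, 696 and 601 CPM in NR and 945, 1088, 1093 and 804 in DR libraries of L2/3 neurons (0.70, SE 0.12, adjusted p 0.011). It was also higher in L4 (0.58), L5NP, L6IT, L6CT (0.46), Lamp5 (0.64) and Pvalb (0.26) neurons, and in L2/3, L4 and Lamp5 the call held without any 1 library. Grin2d (chr7:45831883-45878378), an NMDA receptor subunit with slow kinetics, was at 4.01, 4.93, 4.38 and 3.97 CPM in NR and 10.7, 8.71, 17.2 and 8.73 in DR libraries of L6CT neurons (1.38, adjusted p 0.011), without overlap, and was higher also in L2/3 (0.69), L4 (0.58) and Pvalb (0.38). Gria2, the subunit that makes AMPA receptors calcium-impermeable, was lower in L2/3 (−0.32) and L6CT (−0.41), each in only 2 of 8 refits without 1 library, and Gria4 was lower in L2/3 (−0.37). In all, 8 of 75 excitatory pairs were higher and 3 lower, against 2.66% and 2.6% of all pairs, with a median of 0.069, and without the 3 libraries of high UMI floor 2 and 0.

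Of 95 excitatory pairs of GABA-A receptor subunits 2 were higher and 8 lower, against 2.66% and 2.6% of all pairs, with a median of −0.094. Leaving out 1 library gave 2 to 20 lower pairs, and leaving out the 3 libraries of high UMI floor 0 higher and 9 lower. Gabra2, the α2 subunit, was at 97.8, 82.1, 76.9 and 80.1 CPM in NR and 54.4, 37.3, 45.2 and 50.4 in DR libraries of L6CT neurons (−0.84, SE 0.12, adjusted p 0.0092). The groups stood apart, and the call held without any 1 library. In Lamp5 cells Gabra2 was at 97.7, 82.4, 102 and 106 CPM in NR and 119, 192, 133 and 129 in DR (0.56, adjusted p 0.048), higher and without overlap, but in only 1 of 8 refits without 1 library. Gabrd, the δ subunit of receptors outside synapses, was at 71.2, 71.5, 55.8 and 70.5 CPM in NR and 44.7, 41.4, 47.1 and 56.4 in DR libraries of Pvalb cells (−0.51, adjusted p 0.039), with the NR GR-KO male library inside the DR range. Gabrg1, the γ1 subunit, was lower in L2/3 (−0.87, adjusted p 0.049), with overlap. These 2 calls held in 2 and 1 of 8 refits.

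**Figure D4:**
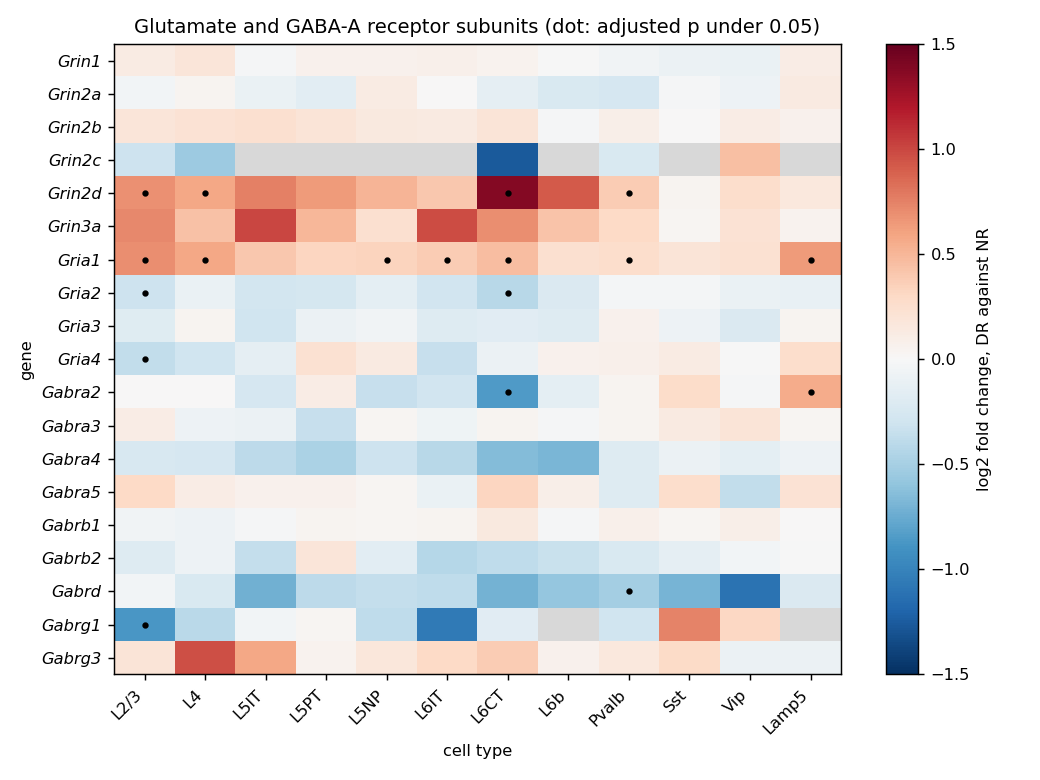
Log2 fold change of DR against NR for selected subunits of AMPA, NMDA and GABA-A receptors (rows) in the 12 neuron types (columns). Colours, grey and dots are as in the map of shared genes; Gria1 has positive calls in 7 types, and Gabra2 has a negative call in L6CT and a positive one in Lamp5 cells.

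The genes of largest change in a single type are given next only from those whose libraries did not overlap and whose log2 CPM averaged 5 or more, and each held without any 1 library unless another number of refits is given. Genes outside this rule can have larger changes. In L6CT neurons Inpp4b (chr8:81342556-82127914), a phosphoinositide phosphatase, was at 16.9, 12.8, 24.8 and 12.6 CPM in NR and 67.7, 146, 61.3 and 61.5 in DR (2.28, SE 0.34, adjusted p 0.01). Sema5b (chr16:35541145-35664732), a transmembrane semaphorin, was at 17.9, 22.2, 43.3 and 29.8 CPM in NR and 113, 61.4, 148 and 99.8 in DR in the same cells (1.94, adjusted p 0.0053). All DR libraries were above all NR libraries in both, with a single high DR library in Inpp4b, the GR-Con female. Ltbp1 (−1.68), which binds latent TGF-β, and Zfp804b (−1.44) were the lower genes of largest change that the naming rule gave in L6CT, and held in 5 and 3 of 8 such refits.

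In L2/3 neurons Tcerg1l (chr7:138208974-138397730) was at 14.6, 8.47, 19.6 and 13 CPM in NR and 46.6, 54.4, 79.2 and 43.2 in DR (2.02, SE 0.24, adjusted p 0.005), and Maml2, a co-activator of Notch, at 22.2, 12.9, 22.2 and 16.3 in NR and 62.7, 90.0, 58.6 and 32.5 in DR (1.68, adjusted p 0.011). Neither overlapped, and the lowest DR library of both was the GR-KO female. In L4 neurons Adamtsl1, a secreted matrix protein, was at 23.4, 32.3, 17.4 and 26.7 CPM in NR and 60.4, 93.0, 61.4 and 65.2 in DR (1.49, adjusted p 0.0087), while Hunk, a kinase, was lower (−1.25, adjusted p 0.021, held in 5 of 8 refits without 1 library). In L6IT neurons Matn2 (chr15:34306677-34436273), a matrilin of the extracellular matrix, was at 35.2, 35.3, 43.8 and 33.5 CPM in NR and 78.4, 94.5, 109 and 113 in DR (1.41, SE 0.10, adjusted p 0.0011). The groups stood apart, with both GR-KO libraries the highest of DR. Spon1, a secreted adhesion protein, was higher there as well (1.26), and the non-coding Gm32647 lower (−1.35, adjusted p 0.00067). In layer 5 the higher genes that the rule gave included Dscaml1, a homophilic adhesion molecule, in L5IT (1.46, adjusted p 0.029, held in 3 of 8 refits), Igsf21 (1.21) and Col5a1, a collagen (1.19, 5 of 8 refits), in L5NP, and Adamts17, a secreted metalloprotease (0.84, 4 of 8), in L5PT.

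Of 197 excitatory pairs of axon guidance genes 7 were higher and 4 lower, against 2.66% and 2.6% of all pairs, with a median of 0.023. When the 3 libraries of high UMI floor were left out, 12 of 198 were higher and 2 lower, against 1.1% and 0.769% of all pairs in that fit. Slit1 (chr19:41600257-41743665), a secreted repellent for axons, was at 20.9, 21.3, 30.0 and 21.9 CPM in NR and 37.4, 40.4, 61.2 and 38.7 in DR libraries of L2/3 neurons (0.91, adjusted p 0.0099). In L6CT it was at 90.4, 93.5, 130 and 94.4 CPM in NR and 160, 185, 233 and 210 in DR (0.94, adjusted p 0.0041), and it was higher in L4 (0.77) and L6IT (0.61) as well, in 6 and 4 of 8 refits without 1 library. The groups were apart in both types whose values are given, with the GR-KO male highest of each rearing. Nrp1 (chr8:128358604-128503363), a receptor for semaphorins, was at 7.65, 8.70, 14.1 and 10.4 CPM in NR and 16.9, 25.9, 31.8 and 42.3 in DR libraries of L4 neurons (1.50, adjusted p 0.0072). Slit2 (−0.84) and Nrp2 (−0.86), relatives of both, were lower in L2/3. Slit1 in L2/3 and L6CT, Nrp1 in L4, and Slit2 and Nrp2 in L2/3 held without any 1 library. Epha4, an ephrin receptor, was higher in L4, Gap43, a growth cone protein, higher in L6CT, and Sema3a, a ligand of Nrp1, lower in L6CT (−0.85) and oligodendrocytes (−1.16), in 3 and 2 of 8 refits. With the trend of expression over gene span taken out, Epha4 (0.20, adjusted p 0.14) and Gap43 (0.57, adjusted p 0.059) no longer passed. Epha3 and Robo1 were called in no type fitted on all libraries in edgeR's quasi-likelihood test.

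Genes of layer 2/3 identity went both ways, with 4 of 95 excitatory pairs higher and 6 lower, against 2.66% and 2.6% of all pairs, and 2 and 3 without the 3 libraries of high UMI floor. Adamts2, a procollagen protease, was higher in L2/3 (1.30) and L6CT (2.05), in 7 and 6 of 8 refits without 1 library, and Cdh13, a cadherin without a cytoplasmic part, higher in L4 (1.66, with overlap between groups), L6CT, Pvalb, Lamp5 and oligodendrocytes. With the trend of expression over gene span taken out, 0 of these 5 calls of Cdh13 passed in edgeR's quasi-likelihood test (1.50 in L4, adjusted p 0.075, and 0.26 to 0.69 in the others, adjusted p 0.056 to 0.12). Agmat, a relative of agmatinase (−1.98), Trpc6, a cation channel (−1.23), and Baz1a were lower in L2/3, and held without any 1 library. Baz1a is also on the effector list, and its 3 lower excitatory pairs are counted in both lists. Of 110 excitatory pairs of the parvalbumin and perineuronal net list, which includes net components and fast-spiking channels, 2 were higher and 6 lower, against 2.66% and 2.6% of all pairs. Of 54 inhibitory pairs 0 were higher and 0 lower, against 0.446% and 0.237% of all pairs, in edgeR's quasi-likelihood test and in DESeq2, with 9 at an unadjusted p under 0.05 and 1 called by the likelihood ratio test. Over all genes, 2590 of 14867 in Pvalb and 1727 of 13391 in Vip cells were at that p, the most and the fewest among the inhibitory types. The 6 lower pairs were Pvalb itself, a calcium buffer that marks interneurons, in L2/3 (−1.33, at most 1.17 CPM in any library), L4 (−1.26) and L6CT (−1.14), and Kcnc2, a channel for fast repolarization, in L5IT, L6IT and L6CT. The part of interneuron RNA in the Pvalb calls was not tested. The 2 higher pairs were both in L6CT, Tnr (chr1:159523769-159931729), the net protein tenascin-R (0.41), and the channel gene Kcnc1 (0.38). Kcnc1 and Kcnc2 thus went opposite ways in L6CT neurons. With the trend of expression over gene span taken out, Kcnc1 still passed there (0.35, adjusted p 0.044) and Tnr did not (0.31, adjusted p 0.064).

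Of 30 inhibitory pairs of interneuron neuropeptides 0 were higher and 3 lower, against 0.446% and 0.237% of all pairs, namely Npy in Lamp5 and Pvalb cells and Cck in Pvalb cells. Leaving out 1 library gave 0 to 2 lower, and leaving out the 3 libraries of high UMI floor 4 of 29. The summed list was lower in DR without overlap in Lamp5 (93.53 to 121.1 CPM in NR, 52.23 to 69 in DR) and Pvalb cells (47.01 to 72.73 and 34.41 to 43.81). It did not overlap either in astrocytes (33.61 to 63.42 and 18.64 to 28.23), oligodendrocytes (23.37 to 49.62 and 14.75 to 20.49) and OPC (42.73 to 77.7 and 24.51 to 40.47). Npy, neuropeptide Y, in Lamp5 cells was at 75.1, 70.3, 81.4 and 81.6 CPM in NR and 52.8, 51.9, 36.0 and 34.3 in DR (−0.82, SE 0.13, adjusted p 0.0082). The groups did not overlap, and the call was lost in 1 of 8 refits. In Pvalb cells Npy was at 7.89, 5.33, 7.84 and 6.71 CPM in NR and 2.54, 3.0, 2.80 and 3.11 in DR (−1.29, adjusted p 0.01), and Cck, cholecystokinin, was lower (−0.56, adjusted p 0.038), in 6 and 0 of 8 refits without 1 library. In Sst cells Sst itself, somatostatin, was at 34.0, 39.3, 60.9 and 31.6 CPM in NR and 24.6, 39.0, 33.1 and 34.5 in DR (adjusted p 0.48), with overlap. Over the excitatory types 0 of 47 pairs of the peptide list were higher and 12 lower, against 2.66% and 2.6% of all pairs, with a median of −0.970. Penk (chr4:4133531-4138819), proenkephalin, was at 1.84, 1.33, 1.542 and 1.51 CPM in NR and 0.224, 0.333, 0.153 and 0.177 in DR libraries of L2/3 neurons (−2.79, SE 0.23, adjusted p 0.0021), low but without overlap. Sst in L2/3 neurons was at 1.39 to 2.85 CPM in NR and 0.566 to 1.01 in DR (−1.40, adjusted p 0.019), and Npy was lower in oligodendrocytes too (−1.38, adjusted p 0.041, held in 1 of 8 refits). Whether the peptide RNA of these or of the interneuron types belonged to the nuclei or came from other cells was not tested. Without the 3 libraries of high UMI floor 0 excitatory pairs were higher and 7 lower, and leaving out 1 library gave 1 to 15 lower.

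Of 151 excitatory pairs of clock genes 6 were higher and 5 lower, near the 2.66% and 2.6% of all pairs, with a median of −0.013. It was 4 and 7 without the 3 libraries of high UMI floor, against 1.1% and 0.769%. Ciart (chr3:95878503-95882251), a repressor of the CLOCK and BMAL1 complex, was at 10.9, 15.8, 12.2 and 13.7 CPM in NR and 5.28, 4.79, 6.84 and 7.10 in DR libraries of L2/3 neurons (−1.15, SE 0.15, adjusted p 0.0055). The groups were clearly apart, and the call held without any 1 library, as in L4 (−0.95) and L6CT (−1.13). Ciart was also called lower in L5IT, Pvalb and OPC, in 1, 5 and 0 of 8 such refits, and Dbp, an output gene of the clock, was lower in L4, Pvalb and OPC. Arntl, which encodes BMAL1, was at 94.6, 78.0, 77.8 and 69.7 CPM in NR and 107, 111, 122 and 120 in DR libraries of L2/3 neurons (0.52, adjusted p 0.014). Npas2, its partner, was higher in L2/3 and Lamp5, Clock in L4 and L6CT, and Rora in L6CT. Per2, Per3, Cry1, Cry2, Nr1d1 and Nr1d2 were among the members called in no type fitted on all libraries. With the trend of expression over gene span taken out, Ciart kept 4 of 6 calls, Clock 1 of 2 and Arntl 1 of 1. In edgeR's quasi-likelihood test Dbp then kept 0 of 3, Npas2 0 of 2 and Rora 0 of 1 (adjusted p 0.052 to 0.14). All mice were collected in the same hours of the day, but only NR mice had a light cycle, so circadian phase and the loss of vision cannot be told apart.

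Of 109 excitatory pairs of glucocorticoid targets, 1 was higher and 2 lower, at or below the 2.66% and 2.6% of all pairs. In edgeR's quasi-likelihood test without the 3 libraries of high UMI floor it was 0 and 0 of 106, with 35 at an unadjusted p under 0.05. The share of all pairs at that p in this fit is not given here. Neither this count nor the one for heat shock below is therefore a result about the list. Sgk1, a kinase induced by glucocorticoids, was higher in L4 (0.41) and lower in L6CT (−0.30), and Tsc22d3, the leucine zipper GILZ, was lower in L2/3 (−0.66). In the heat shock and stress list 0 of 80 pairs were higher and 5 lower, against the same shares, and 1 to 5 were lower when 1 library was left out. It was 0 and 0 of 77 in edgeR's quasi-likelihood test without the 3 libraries, with 10 at an unadjusted p under 0.05. Hsp90aa1, the inducible HSP90 chaperone, was lower in L2/3, L4, L6CT and Lamp5 neurons and in OPC, and in L2/3 and OPC held without any 1 library. Mitochondrial transcripts gave 0 calls in 70 excitatory pairs by edgeR's quasi-likelihood test, DESeq2 and the likelihood ratio test, with 4 at an unadjusted p under 0.05. Over all genes with all 8 libraries, 6112 of 18793 in L2/3 and 1064 of 11659 in L6b neurons were at that p. These were the most and the fewest among the excitatory types. Genes of microglial surveillance gave 0 higher and 1 lower of 59, below the 2.66% and near the 2.6% of all pairs. The lower one was Trem2, a microglial receptor. The counts of these lists are of excitatory neurons and do not describe astrocytes or microglia.

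In oligodendrocytes the naming rule gave Eps8 (chr6:137477245-137654876), a regulator of actin, which was at 44.3, 40.9, 48.7 and 56.3 CPM in NR and 101, 161, 102 and 146 in DR (1.42, SE 0.16, adjusted p 0.0044). It held without any 1 library, and the females of DR were above the males. Tnr was at 1894, 1663, 1422 and 2274 CPM in NR and 2975, 3032, 3178 and 3554 in DR (0.81, SE 0.13, adjusted p 0.016), without overlap, and held in 5 of 8 refits. Sema5b was higher (1.04) and Hapln2, a link protein of the nodes of Ranvier, lower (−0.98), in 4 and 2 of 8 refits. The myelin genes gave no call there, 0 higher and 0 lower of 14 in edgeR's quasi-likelihood test, with a median of −0.152, 4 at an unadjusted p under 0.05, and 1 lower both by the likelihood ratio test and by DESeq2. Of all 13733 genes tested there 1.06% were higher and 0.437% lower, and 2117 had an unadjusted p under 0.05. The likelihood ratio test called 524 of them and DESeq2 326. At these shares, 0 calls in 14 genes do not show that myelin genes were unaffected. Their summed level did not overlap between rearings, at 20830 to 23550 CPM in NR and 19550 to 20570 in DR oligodendrocytes, and at 486.7 to 551.5 and 378 to 413.6 in OPC.

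In neurons the same myelin genes were called lower, in 26 of 82 excitatory pairs with 0 higher, against 2.6% of all pairs lower and 2.66% higher, and in 9 of 14 genes in L2/3, against 7.44% of all genes, at levels far below those of oligodendrocytes. Summed over 4 oligodendrocyte markers, L2/3 neurons were at 23.84 to 40.83 CPM in NR and 15.22 to 20.89 in DR, without overlap. Summed over the 14 myelin genes they overlapped, at 91.41 to 136.6 CPM in NR and 78.53 to 124 in DR. Without the 3 libraries of high UMI floor 1 pair was higher and 6 lower, and 9 to 29 were lower when 1 library was left out. Of 100 excitatory pairs of astrocyte genes 8 were lower and 1 higher, against 2.6% and 2.66% of all pairs. Leaving out 1 library gave 0 to 10 lower, and leaving out the 3 libraries 4 lower. Aldoc and Apoe were among the lower ones, while of 16 astrocyte maturation genes in astrocytes 0 were higher and 0 lower in edgeR's quasi-likelihood test, with a median of −0.011, 2 at an unadjusted p under 0.05, 1 called by DESeq2 and 2 by the likelihood ratio test. Of all 14754 genes tested in astrocytes 0.0136% were higher and 0.00678% lower, and 1661 had an unadjusted p under 0.05. DESeq2 called 97 of them and the likelihood ratio test 138. At these shares, 0 calls in 16 genes do not show that the genes were unaffected. The part of RNA from other cells in the neuronal calls of myelin and astrocyte genes was not tested.

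OPC had Inka2, an inhibitor of the kinase PAK4, higher (0.96) and Lmcd1, a transcriptional cofactor, higher (0.93), both held without any 1 library, and Grm8, a presynaptic glutamate receptor, lower (−0.92, lost without the DR GR-KO male library). When nuclei under a common floor of 7024 UMIs were left out of every library, an alternative chosen after seeing the data, calls fell from 206 to 10 in oligodendrocytes and from 139 to 9 in OPC. Astrocytes above this floor numbered 73 in the DR GR-KO male and 924 in the NR GR-KO male library, and OPC 43 and 310. Oligodendrocytes kept more nuclei, from 337 in the DR GR-KO male to 755 in the NR GR-KO male library. What led to the loss of calls was not tested. Neuron markers summed to 1109 to 2898 CPM in NR and 1339 to 2070 in DR oligodendrocytes, and to 4904 to 6049 and 4998 to 5876 in OPC, with overlap. In astrocytes Vcan, the proteoglycan versican, was higher (0.80), with overlap between the groups, and held in 2 of 8 refits.

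Types with too few nuclei in some libraries were fitted on those with at least 10. Microglia had 0 genes higher and 1 lower (0.00778%), Gm47283 on chromosome Y (−1.67). Their 2 NR libraries were both female and their 3 DR libraries 2 male and 1 female, so that rearing and sex were partly confounded, and no sex term was fitted here. Gm47283 was lower in DR, the rearing that held the male libraries, and the part of sex in its call was not tested. Endothelial cells and smooth muscle cells with pericytes had 0 of 8373 and 0 of 5678, with 491 and 419 genes at an unadjusted p under 0.05 and 15 and 12 by the likelihood ratio test. Vascular leptomeningeal cells (VLMC; 4 NR and 3 DR libraries) had 330 genes higher (4.01%) and 809 lower (9.84%). The lower ones included 11 of 12 neuron markers, and summed neuron markers were at 19530 to 27930 CPM in NR and 5623 to 8123 in DR libraries, while astrocyte markers were at 639 to 914 and 1778 to 2183. The nuclei given this name thus held different amounts of RNA of other cell types in the 2 rearings, whose part in the VLMC calls was not tested.

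Genes higher in DR spanned more of the genome than genes lower in DR, a pattern looked for after the calls had been seen and given as a description. The median span from gene start to end was 67.5 kb for the higher, 13 kb for the lower and 22.6 kb for all tested genes in L2/3 neurons. The same order held in L4 (103, 10.3 and 23 kb), L6CT (79.6, 12.6 and 23.6), Pvalb (141, 5.87 and 25.7), Lamp5 (175, 16.8 and 29.9) and oligodendrocytes (148, 5.99 and 26.6). Of 2641 L2/3 genes of 100 kb or more, 452 were higher and 136 lower, and of 5231 genes under 10 kb, 76 were higher and 594 lower. Without the 3 libraries of high UMI floor the medians in L2/3 were 94.8 kb for higher, 31 kb for lower and 22.7 kb for all tested genes, so that lower genes no longer spanned less than all genes. The same was so in L6CT (97.9, 31.6 and 23.7 kb) and Pvalb cells (141, 32.9 and 25.9 kb). In L4 neurons (102, 22.7 and 23 kb) and oligodendrocytes (168, 26.4 and 26.8 kb) lower genes still spanned slightly less than all genes. Over all tested L2/3 genes, called or not, the median log2 fold change moved little. It went from 0.127 to 0.122 at 100 kb or more and from −0.151 to −0.140 under 10 kb.

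Genes under 10 kb, with the abundant Malat1 left out, supplied 3.55%, 3.29%, 3.91% and 3.64% of UMIs in NR and 3.07%, 3.1%, 3.05% and 3.08% in DR libraries of L2/3 neurons. The 2 rearings did not overlap in this share in 13 of 15 types, the exceptions being L5NP and L6b. The NR GR-KO male library had the highest share in every type except L6b, and the other NR libraries of L2/3 neurons were above all DR libraries as well. In astrocytes, which had almost no called genes, the share was 6.51% to 7.57% in NR and 5.95% to 6.44% in DR. The share from genes of 100 kb and over, Malat1 again left out, did not overlap in only 6 of 15 types, and in L2/3 neurons it overlapped at 66.1% to 67.4% in NR and 66.6% to 67.7% in DR. The NR libraries with the highest shares of short genes in L2/3 neurons, the GR-KO male and female, were also the deepest there, at medians of 27166 and 37731 UMIs per nucleus. The NR GR-Con female library, at 19494, was shallower than the DR GR-Con female at 22845.5 and male at 20839, and had the higher share. The part of depth in these shares was not tested. Immediate early genes (median span 5.41 kb), peptide genes (6.8 kb) and effectors (12.6 kb) are short, and subunits of glutamate receptors (231 kb), GABA-A receptors (120 kb) and guidance genes (277 kb) long, so each list's direction above is to be read beside this trend.

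**Figure D5:**
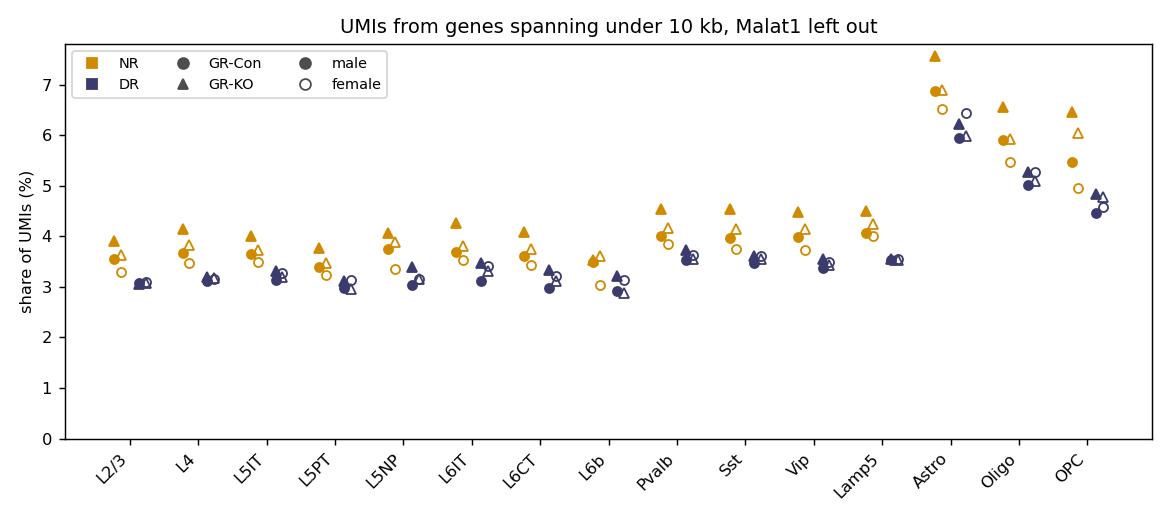
Share of UMIs, in percent, from genes that span under 10 kb of the genome, with Malat1 left out, in each library and cell type (circles GR-Con, triangles GR-KO, filled male, open female; NR and DR side by side). DR libraries lie below NR libraries in 13 of 15 types, among them L2/3 neurons at 3.05% to 3.1% against 3.29% to 3.91%.

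When each library's smooth trend of expression over gene span was taken out, 896 genes were higher and 1103 lower in L2/3, 587 and 579 in L6CT, 308 and 330 in L4, and 79 and 30 in oligodendrocytes. Median spans in L2/3 were then 40.1 kb for higher and 34.3 kb for lower genes. Of the effectors 8 of 31 were lower in L2/3, against 5.87% of all genes (4.77% higher), with a median of −0.577. Cort (−0.90, adjusted p 0.081), Plk2 (−0.21, adjusted p 0.12) and Vgf (−0.92, adjusted p 0.055) no longer passed. Of all excitatory pairs 1.61% were then higher and 1.83% lower. Of the 345 called pairs of named and listed genes and cell types, 205 still passed and 140 did not. GABA-A subunits had 0 excitatory pairs higher and 9 lower, glutamate receptor subunits 6 and 4, guidance genes 5 and 5, clock genes 2 and 3, and myelin genes 0 and 24.

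Malat1 (chr19:5795690-5802672), a long non-coding RNA kept in the nucleus, was itself lower in DR neurons. It made up 6.35%, 6.17%, 6.22% and 6.36% of UMIs in NR and 4.26%, 4.21%, 3.21% and 3.73% in DR libraries of L2/3 neurons (log2 fold change −0.71, SE 0.10, adjusted p 0.0071). The groups were wide apart, with the DR GR-KO libraries lowest. It was called lower in 8 of 15 types, among them L4 (−0.60, adjusted p 0.012), L6CT (−0.56, adjusted p 0.014), L5PT (−0.65, adjusted p 0.034) and Pvalb (−0.27, adjusted p 0.039). The libraries did not overlap in 11 of 12 neuron types, and they overlapped in L6b, astrocytes (0.03, adjusted p 0.94), oligodendrocytes (−0.10, adjusted p 0.55) and OPC (−0.06, adjusted p 0.53). Without the 3 libraries of high UMI floor it was called in 9 of 15 types, but not in L2/3 or L4, where the log2 fold changes were −0.74 (adjusted p 0.062) and −0.57 (adjusted p 0.088). Malat1 was named by rule in L5PT, and its other values were looked at after that.

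Differences of the rearing effect between classes were tested with limma on per-library differences of log2 CPM. Between excitatory and inhibitory neurons 41 genes had a higher effect in excitatory (0.267% of 15328) and 38 a lower one (0.248%). Adamts17 had an effect of 0.79 in excitatory and 0.19 in inhibitory neurons (difference 0.605, adjusted p 0.028). Between the upper layers (L2/3 and L4) and layer 6 (L6IT and L6CT), 10 genes had a higher (0.0591% of 16918) and 8 a lower effect (0.0473%) in the upper layers. Cacna1g (chr11:94408391-94474198), a T-type calcium channel that supports burst firing, had an effect of 0.20 in upper layers and 0.92 in layer 6 (difference −0.720, adjusted p 0.0019). Grik4, a kainate receptor subunit, had 1.00 and 0.30 (difference 0.701, adjusted p 0.039). Between excitatory neurons and astrocytes 1 gene had a higher (0.00698% of 14332) and 2 a lower effect (0.014%). These counts depended on single libraries and ran from 0 to 131, 1 to 258 and 0 to 40 when 1 was left out.

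The share of nuclei of each type did not differ detectably between rearings. Of 20 types, 0 passed edgeR's quasi-likelihood test on numbers of nuclei (smallest adjusted p 0.845), and 0 had an unadjusted p under 0.05. Above the common floor of 7024 UMIs 0 passed either (smallest adjusted p 0.219), and 3 types had an unadjusted p under 0.05. These were L2/3 neurons (0.29 on the log2 scale, SE 0.11), endothelial cells (−1.26, SE 0.46) and the cells annotated as ChC (0.84, SE 0.32). Nuclei were sorted as GFP-negative in every group, and the part of this gate in the shares was not tested.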

How the data were processed

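V1 nuclei of 8 mice were profiled with the 10x Genomics 3′ kit. The authors aligned reads with Cell Ranger 8.0.1 to mm10 with an annotation that held the viral eGFP, removed nuclei with few or very many counts, predicted doublets with DoubletFinder and removed them, clustered with Seurat 5.3.0 and dropped clusters without markers. What the authors deposited are raw UMI counts per gene and nucleus, and their cell table gives for each nucleus the library, the cell type and the percent of mitochondrial UMIs, which was read but not tested. Deposited cell types were used as given. All column sums equalled the deposited UMI numbers.

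UMIs were summed per library and cell type (at least 10 nuclei in each library). For each type, edgeR 4.0.16 in R 4.3.3 (filterByExpr, TMM, glmQLFit, glmQLFTest, two-sided) fitted genotype and rearing, with Benjamini-Hochberg adjustment within the type and a threshold of 0.05. CPM of single genes use TMM-adjusted totals, summed lists plain totals. The SE of a log2 fold change was obtained from its size and F statistic (size over root F). Differences between classes were tested with limma 3.58.1 (prior count 2). DESeq2 1.42.0 and the likelihood ratio test were alternatives. The scripts were tested on simulated data. Tables and figures used Python 3.11.15, pandas 2.3.3, numpy 2.4.6 and matplotlib 3.10.9.

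Members and gene lists were chosen with earlier results of these data known. Named were the 8 genes per direction called in the most types, up to 2 genes per type and direction with the largest change with no overlap of libraries (average log2 CPM not under 5), interaction and class-difference genes of the smallest p or largest difference, and up to 4 list members of the smallest p. Other list members named were chosen after their values were seen. Some genes that the rule gave are not reported here. Library names give group and sex but no replicate number. Counts behind each value follow from the library totals, and how far p-values reach is limited by 4 libraries per rearing. Coordinates came from GENCODE vM21 (GRCm38) for 325 of 327 genes, promoters from RefSeq. The common UMI floor, the removal of 3 libraries, the removal of genes of other classes and the gene span trend were chosen after seeing the data.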

Additional observations from a re-analysis of the deposited data

Results flagged for a closer look

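Of all gene and cell type pairs, 6 had a rearing difference that itself differed between genotypes in edgeR's test of the interaction (difference of the log2 fold change in GR-KO from that in GR-Con). In Pvalb neurons Nacc2, a transcriptional co-repressor, was at 34.9 and 34.4 CPM in NR GR-Con, 29.8 and 28.2 in NR GR-KO, 29.9 and 30.2 in DR GR-Con and 47.5 and 50.5 in DR GR-KO (difference 0.961, adjusted p 0.041). Gpc5, a glypican of the cell surface, was in the same order at 93.6 and 68.9, 25.0 and 22.7, 45.5 and 42.9, and 40.6 and 52.8 CPM (1.853, adjusted p 0.038). The libraries of a group lay close together for Nacc2, and further apart for Gpc5 in NR GR-Con. In astrocytes Nkain2, a gene at least 4-fold higher in excitatory neurons, was at 83.4 and 85.8, 171.7 and 166.5, 182.3 and 189.8, and 102.4 and 103.6 CPM (−1.852, adjusted p 0.0019). In OPC the differences were −0.947 for Kcnip4 (adjusted p 0.046), −1.706 for Galntl6 (adjusted p 0.0014) and −2.921 for Il1rapl2 (adjusted p 0.036). All 3 are at least 4-fold higher in excitatory neurons as well, and the part of neuronal RNA in these differences was not tested.

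Differences of the rearing effect between classes of cells were flagged for 14 genes by limma, each as the first class minus the second. Between excitatory and inhibitory neurons, the effect of Hlf, a clock output factor, was 0.24 and −0.40 (difference 0.641, adjusted p 0.028), that of Adamts17 0.79 and 0.19 (0.605, adjusted p 0.028) and that of Man1c1, a mannosidase, 0.63 and 0.14 (0.492, adjusted p 0.036). On the other side were Col19a1, a collagen (−0.74 and 0.10, difference −0.845), Pcdh11x, a protocadherin (−0.50 and 0.13, difference −0.628), and Tmeff1 (−0.25 and 0.29, difference −0.545, adjusted p 0.032). Between the upper layers and layer 6 they were Rgs20 (0.22 and −0.54, difference 0.763), Grik4 (1.00 and 0.30, difference 0.701), Gm15155 (0.33 and −0.10, difference 0.430), Cacna1g (0.20 and 0.92, difference −0.720), Pde4a, a phosphodiesterase (−0.43 and 0.16, difference −0.587), and Pag1 (−0.24 and 0.30, difference −0.541). Between excitatory neurons and astrocytes they were Wwc1, a scaffold of the Hippo pathway (0.58 and −0.38, difference 0.965), and 9630028H03Rik (−0.75 and 0.40, difference −1.150), both at adjusted p 0.041.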

How the results depend on the processing

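Of 345 called pairs of named and listed genes, 6816 refits under the alternatives kept the direction in 6813, and 4866 passed the threshold. The 3 reversed values, all with 50 nuclei drawn per library, were Igsf21 in Pvalb cells (−0.079), Hbb-bs in oligodendrocytes (0.083) and Glul in L4 neurons (0.098). With 1 library left out, 83 pairs held in all 8 refits and 8 in none.

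Calls in excitatory types (6471) became 844 with 50 nuclei, 3668 with adjustment over all pairs, 2298 without the 3 libraries of high UMI floor, 4235 with the gene span trend removed and 1434 to 8343 without 1 library. Calls in inhibitory types (369) became 25, 710, 961, 84 and 29 to 655 in that order, 1085 by the likelihood ratio test and 2690 without a filter on low counts. Calls in non-neuronal types (348) became 118, 551, 953, 164 and 57 to 886, 904 by the likelihood ratio test, 1468 without a filter and 22 above the common UMI floor. The share of called pairs that were higher was 3272 of 6471 in excitatory types and 1982 of 4235 with the span trend removed. Interaction calls (6) became 394 by the likelihood ratio test, 240 by DESeq2, 21 with a sex term, 24 above the common UMI floor and 3 to 1071 without 1 library. Class differences became, for excitatory against inhibitory (79), 38 with a prior count of 0.5 and 0 to 131 without 1 library, for upper layers against layer 6 (18), 77 with counts summed over types and 1 to 258, and for excitatory neurons against astrocytes (3), 0 with a sex term and 0 to 40. The causes of these shifts were not tested, except that 50 nuclei give fewer counts. Without genes at least 4-fold higher in another class, excitatory calls were 4827 and inhibitory calls 262, and without neuron-enriched genes non-neuronal calls were 319. Shares of nuclei gave 0 types under every alternative run.

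No paired analysis was possible because the library names carry no replicate number that ties a DR library to an NR library. They carry sex, and a sex term beside genotype gave 6083 calls in excitatory, 398 in inhibitory and 353 in non-neuronal types.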
